A study of Mus musculus with 3 samples.

Results

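Krt13-high cells were the cells of the mouse larynx in which at least 20 of every 10,000 unique molecular identifiers (UMIs, each marking 1 captured RNA molecule) came from *Krt13*, a keratin of the upper layers of wet squamous epithelia. There were 1362 of them among 41033 cells, with 403 in library 1, 165 in library 2 and 794 in library 3. Barcodes entered if they had between 500 and 8000 genes with a UMI, a total of 1000 to 40000 UMIs and no more than 8% of these from mitochondrial genes, after removal of barcodes that held UMIs of *Krt5*, *Ltf*, *Scgb3a1* and *Dcn* all at once. Each library was also divided into 2 comparison groups. Squamous basal cells had a summed *Krt5* and *Krt14* level of at least 40 per 10,000 UMIs and *Krt13* under 20 (588, 296 and 2710 cells). Their name rests on these keratins only, and whether airway basal cells are among them was not tested. Other Epcam-positive cells had at least 1 UMI of *Epcam*, an adhesion molecule of epithelial cells, and were in neither of those groups (6428, 4696 and 13665 cells).

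All 3 libraries were made from sorted tdTomato-positive cells of *Lrig1*CreERT2/+; *ROSA26* CAG-LSL-tdTomato/+ mice, which received tamoxifen on consecutive days, and 24 h had passed since recombination. Each library pooled 10 larynges, 5 from males and 5 from females, so animals could not be told apart within it, and all 3 libraries represent the same condition. CreERT2 is driven from the *Lrig1* locus, which encodes a negative regulator of ErbB receptors, so the sort took cells that had used this locus at the time of tamoxifen. An untreated or unsorted library was not analysed here. Comparisons were therefore between groups of cells of the same 3 libraries, and the library was the replicate (n = 3).

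Stratified squamous epithelium covers the vocal folds. Its basal cells sit on the basement membrane through hemidesmosomes, make keratins 5 and 14, carry the transcription factor p63 (*Trp63*) and divide. Cells that leave this layer exchange those keratins for others, with keratins 4 and 13 as the pair of wet, non-cornified epithelia, strengthen their desmosomes and tight junctions, and load proteins that transglutaminases cross-link beneath the plasma membrane. The Notch pathway and the factors Klf4, Grhl3 and Zfp750 are known to promote that program.

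The Krt13-high cells made up 3.21%, 2.31% and 3.72% of the cells in libraries 1 to 3 (95% Wilson intervals 2.92 to 3.54, 1.99 to 2.69 and 3.47 to 3.98, counting error only), with a mean of 3.08% ± 0.714 (SD, n = 3). The members were chosen by their *Krt13* level, which is therefore given as a description. The median was 45.4 per 10,000 UMIs, the quartiles were 29.8 and 73.9, and the range ran from 20 to 487. The threshold cut through a continuous distribution: 307 cells lay just outside it, at 15 to 20, and 211 just inside, at 20 to 25. Among endothelial cells (*Pecam1* and *Cdh5* UMIs and no *Epcam* UMI; 421, 30 and 31 cells), which should lack this keratin, 10.4% ± 3.30 (SD, n = 3) had a *Krt13* UMI, but the highest level in any of them was 6.21 per 10,000, below the threshold. An *Epcam* UMI was found in 78.7%, 86.7% and 91.2% of Krt13-high cells. No barcode sequence was shared between libraries among them, and 17, 84 and 52 barcodes were shared by pairs of libraries among all cells. Krt13-high cells were a small share of all cells, so few shared barcodes could fall among them and their absence says little.

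**Figure D1:**
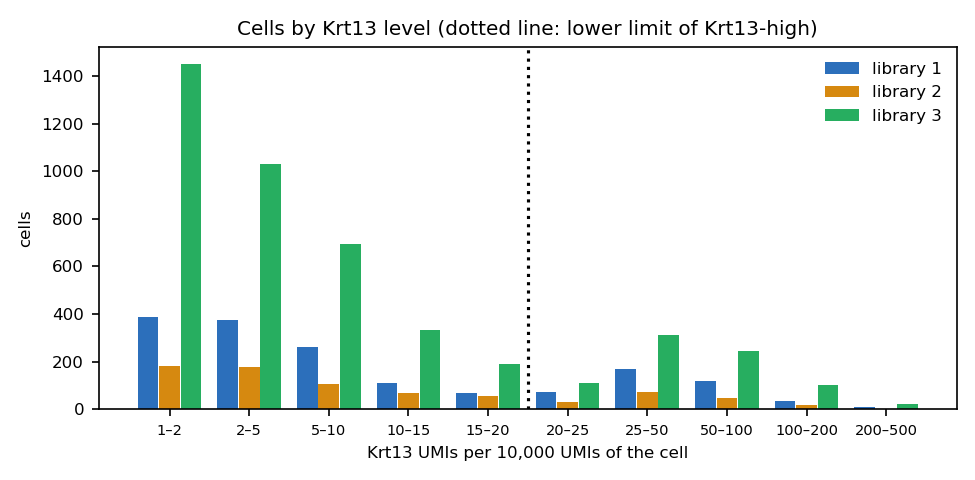
Number of cells (y axis) by *Krt13* UMIs per 10,000 UMIs of the cell (x axis, bins of unequal width) in each of the 3 libraries (bar colours). Cells under 1 per 10,000 (34196 of 41033) are not drawn, and the counts fall toward the threshold of 20 (dotted line) with no gap there in any library.

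The deposited matrices held 211727921, 147898790 and 413632222 UMIs in 18068, 10816 and 31646 barcodes. Krt13-high cells were captured more deeply than the cells they were compared with. Their median was 16514, 23463 and 21192 UMIs in libraries 1 to 3, against 10726, 18913 and 15761.5 in squamous basal cells. The ratio of medians averaged 1.37 ± 0.152 (SD, n = 3) against squamous basal cells and 1.39 ± 0.139 against other Epcam-positive cells, above 1 in 3 of 3 libraries (exact two-sided sign-flip permutation p = 0.25 each, the smallest possible with 3 libraries). A caller that simulates doublets scored 5.46%, 0% and 10.3% of Krt13-high cells as such, against 4.93%, 3.04% and 9.52% of squamous basal cells. Expression levels below are UMIs summed over the cells of a group in a library and divided by all UMIs of that sum, and scaled to one fixed total for every sum (CPM). Fold changes come from edgeR's quasi-likelihood test on those sums, given as log2 with its standard error (SE) and the Benjamini-Hochberg adjusted p over all genes tested.

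These cells were labelled suprabasal squamous cells on 5 markers, and 3 of the 4 that the rule did not use set them apart from squamous basal cells. *Krt4* (chr15:101826970-101833170, minus strand, GRCm39), the partner of keratin 13, stood at 1838, 1869 and 2452 CPM in Krt13-high cells of libraries 1 to 3, at 445, 308 and 408 CPM in squamous basal cells and at 245, 230.1 and 321 CPM in other Epcam-positive cells. No library overlapped between the groups, and the log2 fold change was 2.54 ± 0.19 (SE), adjusted p = 0.000322, against squamous basal cells and 3.21 ± 0.20 (SE), adjusted p = 0.000204, against the other Epcam-positive cells. *Krt6a* (chr15:101598345-101602742, minus strand), a keratin of activated and inner-layer keratinocytes, stood at 921, 577 and 1792 CPM against 492, 315 and 478 CPM in squamous basal cells (1.49 ± 0.38 (SE), adjusted p = 0.0368) and 31.8, 39.4 and 45.9 CPM in other Epcam-positive cells (5.08 ± 0.44 (SE), adjusted p = 0.000467). Reads of *Krt6a* and its near-identical neighbour *Krt6b* can be exchanged, so the share of each is uncertain. *Sbsn* (chr7:30450896-30455559, plus strand), which encodes the secreted protein suprabasin, stood at 42.2, 31.8 and 85.6 CPM against 14.6, 15.9 and 15.98 CPM in squamous basal cells (1.95 ± 0.33 (SE), adjusted p = 0.00699) and 9.78, 10.6 and 7.78 CPM in other Epcam-positive cells (2.80 ± 0.35 (SE), adjusted p = 0.00126).

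The label held in part. *Lgals7* (chr7:28562343-28565722, plus strand), encoding galectin-7 of stratified epithelia, stood at 1262, 584 and 823 CPM in Krt13-high cells and at 854, 511 and 852 CPM in squamous basal cells. These ranges overlapped, the log2 fold change of 0.41 did not pass the test (adjusted p = 0.465), and it did so with the library as a block (adjusted p = 0.0401). Against other Epcam-positive cells, at 54.8, 60.5 and 74.8 CPM, it was higher by 4.08 ± 0.31 (SE), adjusted p = 0.000328. Both squamous groups thus stood above the other Epcam-positive cells in *Lgals7*. Of 5 tested squamous basal markers 0 were higher and 2 lower, *Trp63* and *Itgb4*, or 1 higher and 3 lower with the block. The 1 was *Krt15*, a basal keratin, which stood at 5771, 6793 and 10069 CPM against 5126, 4275 and 6909 CPM in squamous basal cells (0.61, adjusted p = 0.191; with the library as a block, 0.0105). The summed *Krt5* and *Krt14* level had a median of 30.2, 23.2 and 34.4 per 10,000 in Krt13-high cells, and 503 of the 1362 cells reached the 40 per 10,000 that defined squamous basal cells.

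**Figure D2:**
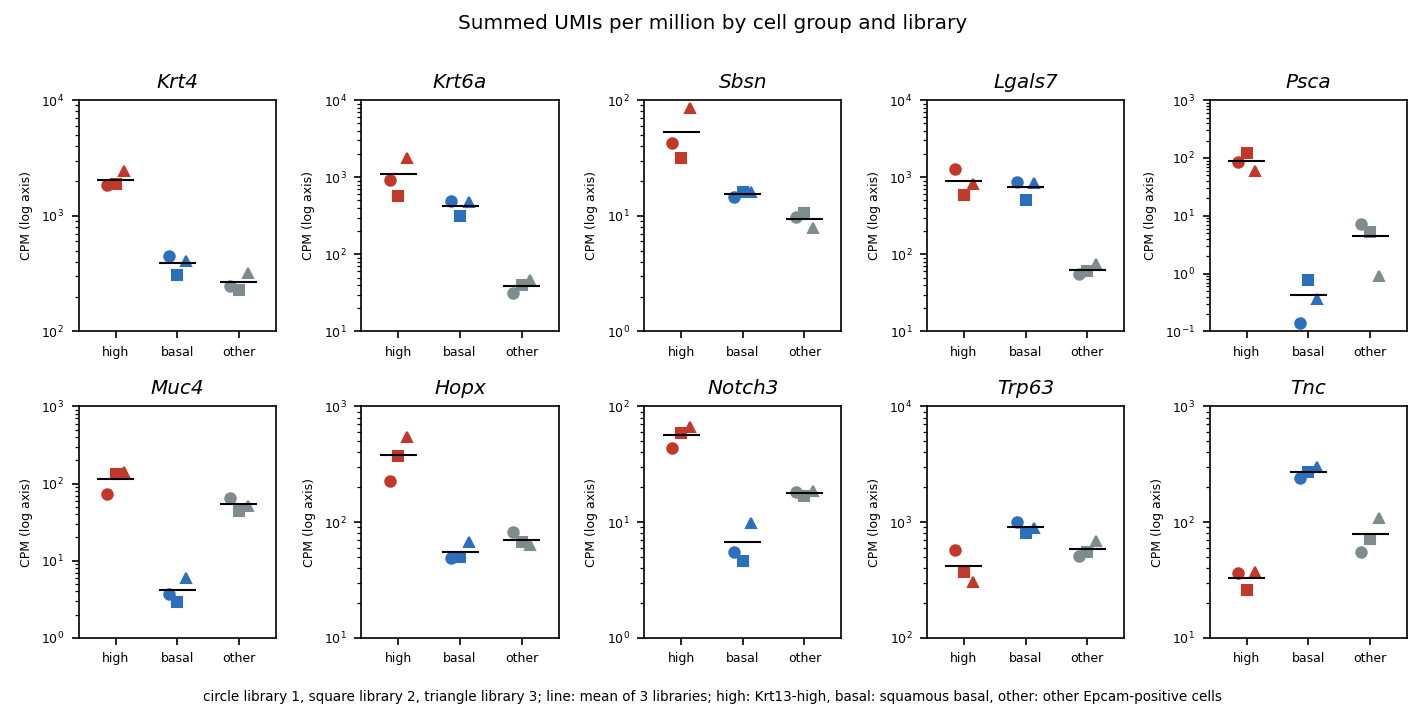
Level of 10 genes (y axis, CPM, log axis) in Krt13-high cells, squamous basal cells and other Epcam-positive cells, with 1 point per library and a line at the mean of 3 libraries. *Krt4*, *Psca*, *Muc4*, *Hopx* and *Notch3* lie higher in Krt13-high cells than in squamous basal cells in every library, *Trp63* and *Tnc* lie lower, and *Lgals7* overlaps.

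The promoters of 4 genes that the results below turn on are shown for the sequence elements they hold: *Krt13*, which chose the cells, *Sprr1a*, an envelope precursor that rose, and *Cyp2a5* and *Muc4*, which differed among Krt13-high cells. Each is the 250 bases before the annotated start, 5′ to 3′ on the gene's strand, from RefSeq on GRCm38.p6, an older build than that of the counts. Capitals mark the letters CACCC or, read on the other strand, GGGTG, a box bound by KLF factors, and TGANTCA, a loose form of the AP-1 motif with any base (N) in the middle.
Krt13, chr11:100121567-100121816, minus strand: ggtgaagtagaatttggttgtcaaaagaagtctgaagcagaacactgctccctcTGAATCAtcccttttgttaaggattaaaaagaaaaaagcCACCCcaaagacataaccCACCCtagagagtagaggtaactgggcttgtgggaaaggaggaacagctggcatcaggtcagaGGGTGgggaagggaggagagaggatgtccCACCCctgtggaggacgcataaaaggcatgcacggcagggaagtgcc
Sprr1a, chr3:92485882-92486131, minus strand: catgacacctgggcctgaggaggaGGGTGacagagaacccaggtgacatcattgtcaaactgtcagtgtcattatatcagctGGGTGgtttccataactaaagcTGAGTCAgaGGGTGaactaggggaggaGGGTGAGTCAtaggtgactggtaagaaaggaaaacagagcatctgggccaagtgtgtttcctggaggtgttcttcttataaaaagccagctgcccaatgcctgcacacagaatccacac
Cyp2a5, chr7:26835089-26835338, plus strand: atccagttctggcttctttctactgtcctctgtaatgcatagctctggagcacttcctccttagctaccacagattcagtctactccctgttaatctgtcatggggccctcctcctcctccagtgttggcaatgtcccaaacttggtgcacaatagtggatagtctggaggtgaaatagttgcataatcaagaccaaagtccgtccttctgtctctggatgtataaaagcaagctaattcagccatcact
Muc4, chr16:32735636-32735885, plus strand: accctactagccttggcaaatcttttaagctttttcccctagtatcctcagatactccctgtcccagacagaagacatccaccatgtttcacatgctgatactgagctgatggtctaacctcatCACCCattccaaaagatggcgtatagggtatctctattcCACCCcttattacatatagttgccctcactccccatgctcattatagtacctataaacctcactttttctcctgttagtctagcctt

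The *Krt13* promoter held 4 KLF boxes and 1 AP-1 motif, and the *Sprr1a* promoter held 4 KLF boxes and 2 AP-1 motifs, of which 1 shares its first letters with a KLF box. The AP-1 match in *Krt13* was TGAATCA, and those in *Sprr1a* were TGAGTCA, so they differ in the middle base that the search left free. The *Muc4* promoter held 2 KLF boxes, and the *Cyp2a5* promoter held neither motif. The grainyhead motif AACNGGTT was searched as well and matched none of the 4. Over 27025 mouse promoters of the same length, a KLF box was present in 51.3%, an AP-1 motif in 6.87% and a grainyhead motif in 0.929%. *Krt4*, *Krt6a* and *Psca* had no entry in the table of promoters. These matches describe letters and were not tested for binding.

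The first comparison asked how Krt13-high cells differed from the squamous basal cells of the same libraries. Of 12803 genes tested, 1516 passed at an adjusted p under 0.05 (11.8%), 841 higher (6.57%) and 675 lower (5.27%) in Krt13-high cells. The groups shared their libraries, and with the library as a block 3680 genes passed (28.7%), 2054 higher (16%) and 1626 lower (12.7%). The groups were cut on *Krt13*, *Krt5* and *Krt14*, so genes that vary with these keratins from cell to cell differ by construction, and the test shows only whether the difference recurred over 3 libraries. The 3 rule keratins themselves were taken out. Without library 1, 2 or 3 the count was 711, 515 and 871, and it was 3778, 3202 and 2183 with the block kept. Fold changes are scaled by TMM, which put the median over all genes at 0.01, whereas the plain ratio of CPM had a median of -0.13, so a fold change read from the CPM values is lower by about that amount.

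Several keratins other than those of the rule rose. Of 17 differentiation keratins 10 were measured well enough to be tested, 5 rose and 0 fell (6 and 0 with the block), with a median log2 fold change of 2.02 against 0.01 over all genes. Besides *Krt4* and *Krt6a*, these were *Krt80* (30.9, 31.5 and 62.9 against 4.49, 5.63 and 5.19 CPM; 3.2 ± 0.30 (SE), adjusted p = 0.000596), *Krt23* (87.5, 124 and 94.1 against 23.3, 14.9 and 8.13 CPM; 2.92 ± 0.36 (SE), adjusted p = 0.00182) and *Krt6b* (5.14, adjusted p = 0.007). *Krt6b* passed the low-count filter through Krt13-high cells only and had 1175 of its 1302 UMIs in library 3. *Krt17*, a keratin of injured and appendage epithelium, stood at 1604, 1082 and 3779 against 1672, 1209 and 2271 CPM and did not pass (0.46, adjusted p = 0.573). *Krt16*, its usual companion, had a log2 fold change of 2.81 that passed only with the block (adjusted p = 0.143 without it and 0.000663 with it).

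The keratins of simple and glandular epithelia rose too. Of 5 tested basal and simple keratins 4 were higher and 0 lower, or 5 and 0 with the block. *Krt8* stood at 157, 208 and 301 CPM in Krt13-high cells against 38.6, 46.2 and 51.5 CPM (2.42 ± 0.23 (SE), adjusted p = 0.000585), and its partner *Krt18* had a log2 fold change of 1.19, adjusted p = 0.002. *Krt19* stood at 284, 405 and 506 against 79.5, 70.6 and 100.4 CPM (2.38 ± 0.22 (SE), adjusted p = 0.000461), and *Krt7* rose by 1.59, adjusted p = 0.00126. Against other Epcam-positive cells, 4 of 6 tested members of this list were higher and 1 lower, or 3 and 1 with the block. Over all genes tested there 20.6% were higher and 19.9% lower, or 24.4% and 23.1% with the block. *Krt18* was the lower one (-1.37, adjusted p = 0.0014) and *Krt19* did not pass (-0.08, adjusted p = 0.799).

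Proteins of the cross-linked envelope and its attachments rose in most of the members that could be tested. Among 20 genes for transglutaminases and secreted or membrane proteins of suprabasal cells, all 20 tested, 14 rose and 0 fell (median 1.49), or 17 and 1 with the block, and 3 of the 14, *Ly6g6c*, *Tgm3* and *Cysrt1*, passed the low-count filter through Krt13-high cells only. They included *Anxa1* at 2767, 3223 and 4985 against 1497, 1581 and 1376 CPM (1.43 ± 0.23 (SE), adjusted p = 0.00545), *Lgals3* (1.41, adjusted p = 0.00243), the calcium-binding *S100a14* (1.03, adjusted p = 0.0116) and *S100a16* (1.05, adjusted p = 0.016). *Ly6g6c*, a GPI-anchored surface protein, stood at 32.4, 49.8 and 88.1 against 0.421, 0.970 and 0.993 CPM, which is given as a description, since it entered the test through Krt13-high cells only. Of 40 measured envelope precursors only 9 reached a level that could be tested, and 5 rose and 0 fell, or 6 and 0 with the block. Of these 5, 1 (*Cnfn*) reached that level in Krt13-high cells only, so it could only be counted as higher. The plakins envoplakin, *Evpl* (84.0, 116 and 135 against 37.1, 44.6 and 53.7 CPM; 1.44 ± 0.19 (SE), adjusted p = 0.00231), and periplakin, *Ppl* (1.18, adjusted p = 0.000932), were among them. *Sprr1a*, a small proline-rich precursor, stood at 110.2, 30.1 and 504 against 19.2, 7.57 and 30 CPM (3.57 ± 0.91 (SE), adjusted p = 0.039), with library 2 of the Krt13-high cells at the level of library 3 of the squamous basal cells.

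Of the late precursors of cornified skin, loricrin and involucrin did not pass. Loricrin, *Lor*, stood at 1.60, 0.843 and 1.18 CPM (-0.60, adjusted p = 0.373) and involucrin, *Ivl*, at 5.69, 10.1 and 7.93 CPM (0.96, adjusted p = 0.252) in Krt13-high cells, and filaggrin, *Flg*, had no UMI there. *Cnfn*, cornifelin, had 115, 88 and 943 UMIs in Krt13-high cells and 2, 1 and 8 in the larger number of squamous basal cells. *Cstb*, encoding the cysteine protease inhibitor cystatin B, stood at 443, 437 and 711 against 353, 327 and 461 CPM and passed only with the block (adjusted p = 0.104 without it, 0.000786 with it).

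Some genes of desmosomes and many of tight junctions rose, and some of hemidesmosomes and basement membrane adhesion fell. Of 10 tested desmosome genes 5 rose and 0 fell (median 0.47), or 7 and 1 with the block. *Jup*, plakoglobin, stood at 353, 383 and 502 against 217, 223 and 242 CPM (1.00 ± 0.14 (SE), adjusted p = 0.00357), desmoplakin, *Dsp*, rose by 0.57, adjusted p = 0.0393, and *Perp*, a p63 target at desmosomes, by 0.60, adjusted p = 0.039. Of 17 tested tight junction genes 12 rose and 0 fell (median 1.15), or 13 and 0 with the block. The claudins led them, with *Cldn3* at 125, 255 and 197 against 21.0, 21.3 and 22.8 CPM (3.27 ± 0.24 (SE), adjusted p = 0.000301), *Cldn4* (2.15, adjusted p = 0.000107) and *Cldn7* (1.98, adjusted p = 0.00142).

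Of 24 tested genes of hemidesmosomes and basement membrane adhesion, 0 rose and 7 fell, and 16 fell with the block (median -0.38). The 7 were *Itga2* (-2.91), *Col7a1* (-1.63), *Lamb3* (-1.02), *Col4a6* (-0.92), *Bcam* (-0.75), *Cav1* (-0.70) and *Itgb4* (-0.56, all log2 fold changes, adjusted p from 0.000362 to 0.0499). *Col17a1*, a collagen of the hemidesmosome, stood at 456, 257 and 260.0 against 532, 434 and 457 CPM and fell only with the block (adjusted p = 0.349 without it, 0.0172 with it). *Itga6*, its integrin partner, stood at 623, 466 and 407 against 602, 488 and 515 CPM and passed in neither fit. The matrix glycoprotein tenascin C, *Tnc*, was among the largest falls, from 239, 269 and 302 CPM to 36.3, 25.9 and 37.4 CPM (-2.86 ± 0.16 (SE), adjusted p = 0.000107).

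The transcription factors that promote squamous differentiation moved unevenly. Of 30 tested, 11 rose and 1 fell (median 0.36), or 16 and 3 with the block, and 2 of the 11 passed the low-count filter through Krt13-high cells only. *Zfp750* stood at 71.1, 77.6 and 104 against 6.87, 11.8 and 7.92 CPM (3.43 ± 0.22 (SE), adjusted p = 0.000234), *Grhl3* at 32.0, 22.2 and 60.3 against 2.52, 3.30 and 6.68 CPM (3.2 ± 0.43 (SE), adjusted p = 0.00286) and *Hopx*, a homeodomain cofactor, at 227, 375 and 541 against 48.6, 50.05 and 67.9 CPM (2.91 ± 0.29 (SE), adjusted p = 0.000829). *Ovol1* (2.08, adjusted p = 0.00359), *Grhl1* (1.96, adjusted p = 0.000909), *Elf3* (1.51, adjusted p = 0.000846), *Ehf* (0.72, adjusted p = 0.0159) and *Barx2* (0.58, adjusted p = 0.0155) rose as well. *Klf4* (0.63, adjusted p = 0.0778) and *Klf5* (0.50, adjusted p = 0.0506) missed the threshold and passed with the block (adjusted p = 0.0164 and 0.00168). The gene that fell without the block was *Rora*, a nuclear receptor of the clock (-1.03, adjusted p = 0.0497).

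Factors of basal cells and of the foregut gave 0 of 26 higher and 9 lower (median -0.25), or 2 higher and 12 lower with the block. *Trp63* stood at 573, 367 and 301 CPM against 1006, 805 and 897 CPM, with no overlap (-0.98 ± 0.24 (SE), adjusted p = 0.034). *Nkx2-1*, the lung and thyroid lineage factor, stood at 13.3, 20.2 and 23.9 against 55.2, 71.8 and 60.9 CPM in squamous basal cells and 70.8, 54.9 and 89.7 CPM in other Epcam-positive cells, lower than in either (-1.56 ± 0.21 (SE), adjusted p = 0.00247, and -1.63 ± 0.24 (SE), adjusted p = 0.00228). *Irx1* (-2.25, adjusted p = 0.00411), *Irx2* (-1.13, adjusted p = 0.00191), *Sox9* (-1.40, adjusted p = 0.00191), *Eya1* (-0.98, adjusted p = 0.00372), *Bcl11a* (-0.62, adjusted p = 0.00697), *Nfib* (-0.60, adjusted p = 0.0196) and *Trp73* (-2.25, adjusted p = 0.0285) were the others. A *Nkx2-1* UMI was present in 29.1%, 41.6% and 38.0% of squamous basal cells and in 12.7%, 17.0% and 20.5% of Krt13-high cells. The part of airway basal cells within the squamous basal group in these falls was not tested. *Sox2*, shared by esophagus and airway, stood at 238, 293 and 299 against 265, 329 and 359 CPM and *Pax9*, of the oral and esophageal lining, at 176, 166 and 210.5 against 169, 187 and 215 CPM, and neither passed in either fit.

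Some receptors and target genes of the Notch pathway rose. Of its 20 tested genes 7 rose and 2 fell, or 7 and 5 with the block. Among the receptors, *Notch3* rose from 5.47, 4.66 and 9.89 to 44.1, 58.5 and 66.4 CPM (3.10 ± 0.27 (SE), adjusted p = 0.000436), *Notch1* from 91.8, 74.9 and 85.2 to 153, 105 and 119.9 CPM (0.73 ± 0.16 (SE), adjusted p = 0.022) and *Notch2* by 0.59, adjusted p = 0.0235. So did the target genes *Nrarp*, a feedback inhibitor, from 5.19, 6.21 and 8.78 to 35.7, 18.6 and 40.3 CPM (2.34 ± 0.30 (SE), adjusted p = 0.00231) and *Hes1* (0.68, adjusted p = 0.0114). Of the ligands, *Jag2* fell from 178, 151 and 163 to 109, 75.3 and 53.3 CPM (-0.91 ± 0.24 (SE), adjusted p = 0.0442), *Jag1* rose slightly (0.34, adjusted p = 0.0489), and *Dll1* had a log2 fold change of -1.30 that passed only with the block (adjusted p = 0.175 without it, 0.00146 with it). *Lfng*, a glycosyltransferase that tunes which ligand a receptor answers, fell by 1.78, adjusted p = 0.02.

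*Notch3* is also a pericyte marker. The 5 pericyte and smooth muscle markers summed to 47.0 to 69.7 CPM in Krt13-high cells, against 6.98 to 14.7 CPM in squamous basal cells, of which *Notch3* itself made up most. Of 3 of these 5 markers tested 1 rose, *Notch3*, and 0 fell, or 1 and 1 with the block.

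*Lrig1*, the gene behind the sort, did not differ past the threshold from its level in squamous basal cells. It stood at 40.6, 62.7 and 53.4 CPM in Krt13-high cells, 40.0, 45.4 and 53.1 CPM in squamous basal cells (0.30 ± 0.17 (SE), adjusted p = 0.315) and 84.7, 92.8 and 104 CPM in other Epcam-positive cells, above the Krt13-high cells in every library (-0.59 ± 0.16 (SE), adjusted p = 0.02). A *Lrig1* UMI was present in 49.7% ± 10.9 (SD, n = 3) of Krt13-high cells and 38.0% ± 7.78 of squamous basal cells. It was present in 60.4% ± 6.92 of other Epcam-positive cells and 10.1% ± 2.77 of endothelial cells. Median depths were 16514 to 23463 UMIs in Krt13-high cells and 5362 to 7841 in endothelial cells. With every cell thinned to 5000 UMIs the shares were 19.9% ± 1.72, 19.9% ± 2.77, 34.8% ± 2.76 and 9.85% ± 5.02 in the same order. Among the ErbB receptors that Lrig1 restrains, *Erbb2* (0.73, adjusted p = 0.00439) and *Erbb3* (0.74, adjusted p = 0.00644) rose, while *Egfr* stood at 338, 280.0 and 248 against 369, 314 and 317 CPM and passed in neither fit. The inhibitors of receptor signalling *Spry1* (-1.30, adjusted p = 0.00647) and *Spry2* (-1.13, adjusted p = 0.0106) fell. In all, 3 of 17 tested genes of this list rose and 2 fell, or 5 and 5 with the block.

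Some of these calls rested on having all 3 libraries when the library was not a block. *Krt6a*, *Notch1*, *Notch2*, *Jag1*, *Dsp*, *Perp*, *Ehf* and *Itgb4* lost theirs whichever library was left out, with adjusted p from 0.055 to 0.151 for *Krt6a* and from 0.0629 to 0.0826 for *Notch1*. *Trp63* lost it without library 2 or 3 (adjusted p = 0.205 and 0.0752), *Sbsn* without library 1 (adjusted p = 0.0592) and *Sprr1a* without library 1 or 3 (adjusted p = 0.17 and 0.0617). With the block kept in these 2-library fits, the adjusted p of *Krt6a* ran from 1.42e-05 to 0.000128 and that of *Trp63* from 5.5e-07 to 0.000669. That of *Notch1* ran from 0.000107 to 0.000327. Of the genes that lost their call above, all but *Jag1* passed in each fit with the block kept. *Jag1* missed the threshold there without library 3 (adjusted p = 0.0853). *Krt4*, *Zfp750*, *Grhl3*, *Hopx*, *Notch3*, *Muc4*, *Cyp2a5*, *Cldn3* and *Tnc* passed in each of the 3 fits without 1 library. *Psca* did too, but it entered the test through Krt13-high cells only. Against other Epcam-positive cells 15 of 19 called genes named here passed in each fit without 1 library. *Lrig1* missed the threshold without library 3 (adjusted p = 0.0631), *Muc4* without library 2 (0.0542), *Mki67* without library 1 (0.111) and *Calca* without library 1 or 2 (0.127 and 0.0918).

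Genes of DNA replication and division had medians below 0, but few passed. Of 32 S phase genes 0 rose and 2 fell, and 14 fell with the block (median -0.45). Of 38 G2 and M phase genes 0 rose and 0 fell, and 23 fell with the block (median -0.56). *Mki67*, the proliferation antigen, stood at 55.3, 21.1 and 52.5 against 68.3, 27.7 and 99.8 CPM (-0.45, adjusted p = 0.607; with the block, 0.0231). Against other Epcam-positive cells the order turned, with 20 of 32 S phase and 26 of 38 G2 and M phase genes higher and 0 lower (23 and 33 higher with the block). Over all genes tested there 20.6% were higher, or 24.4% with the block. *Mki67* stood at 10.3, 5.70 and 20.4 CPM in those cells (2.12 ± 0.50 (SE), adjusted p = 0.0139).

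Some mucins and other surface proteins rose beside the squamous genes. *Psca*, a GPI-anchored surface protein of stratified and urinary epithelia, had the largest log2 fold change of the genes named here: 85.4, 122 and 59.0 CPM in Krt13-high cells against 0.140, 0.776 and 0.361 CPM in squamous basal cells, where the 3 libraries held 1, 4 and 16 UMIs (8.0 ± 0.43 (SE), adjusted p = 0.000107). Like *Ly6g6c*, *Psca* entered the test through Krt13-high cells only, so it could only be called higher. A *Psca* UMI was present in 3.97%, 6.67% and 8.06% of Krt13-high cells, so a minority of cells carried its level. *Muc4*, a membrane mucin, stood at 74.1, 135 and 139 against 3.64, 2.91 and 6.03 CPM (4.76 ± 0.32 (SE), adjusted p = 0.000254), and of 18 tested mucins and surface glycoproteins 10 rose and 0 fell (median 0.84), or 13 and 1 with the block. Of these 10, 4 passed the low-count filter through Krt13-high cells only. *Upk1b*, a uroplakin, stood at 573, 854 and 727 against 398, 419 and 383 CPM (0.98 ± 0.16 (SE), adjusted p = 0.00579). *Cyp2a5*, a xenobiotic-metabolizing cytochrome whose reads can be exchanged with *Cyp2a4*, stood at 374, 505 and 354 against 11.5, 8.15 and 9.57 CPM (5.53 ± 0.21 (SE), adjusted p = 2.7e-05), and *Sult1b1*, a sulfotransferase, rose by 4.56, adjusted p = 0.00044.

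Proteases, lipid enzymes and defence genes followed. Of 17 tested genes of the Tmprss11 family and epithelial serine proteases 8 rose and 0 fell (median 0.94), or 12 and 1 with the block, with 1 of the 8 (*Prss27*) past the low-count filter through Krt13-high cells only, among them *Tmprss11b* at 78.8, 101 and 107 against 28.9, 39.6 and 33.1 CPM (1.64 ± 0.15 (SE), adjusted p = 0.000585). *Tmprss11a* stood at 581, 471 and 439.9 against 506, 527 and 529 CPM and passed in neither fit. Of 14 tested protease inhibitors 6 rose and 0 fell (median 0.82), or 8 and 1 with the block. Of 24 lipid barrier genes 10 rose and 2 fell (median 0.62), or 16 and 2 with the block, and 2 of the 10 (*Alox12e* and *Pla2g4e*) passed that filter through Krt13-high cells only, with the acyl-CoA synthetase *Acsl1* at 173, 271 and 254 against 79.6, 81.7 and 80.0 CPM (1.67 ± 0.16 (SE), adjusted p = 0.000693). Of 18 tested antimicrobial and alarmin genes 5 rose and 1 fell (median 0.46), or 7 and 2 with the block, and 1 of the 5 (*Duoxa2*) passed the filter in the same way. *Pglyrp1*, a peptidoglycan-binding protein, stood at 416, 788 and 661 against 96.3, 97.4 and 126 CPM (2.68 ± 0.23 (SE), adjusted p = 0.000436), and the 1 that fell without the block was *Lcn2* (-3.10, adjusted p = 0.0338).

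**Figure D3:**
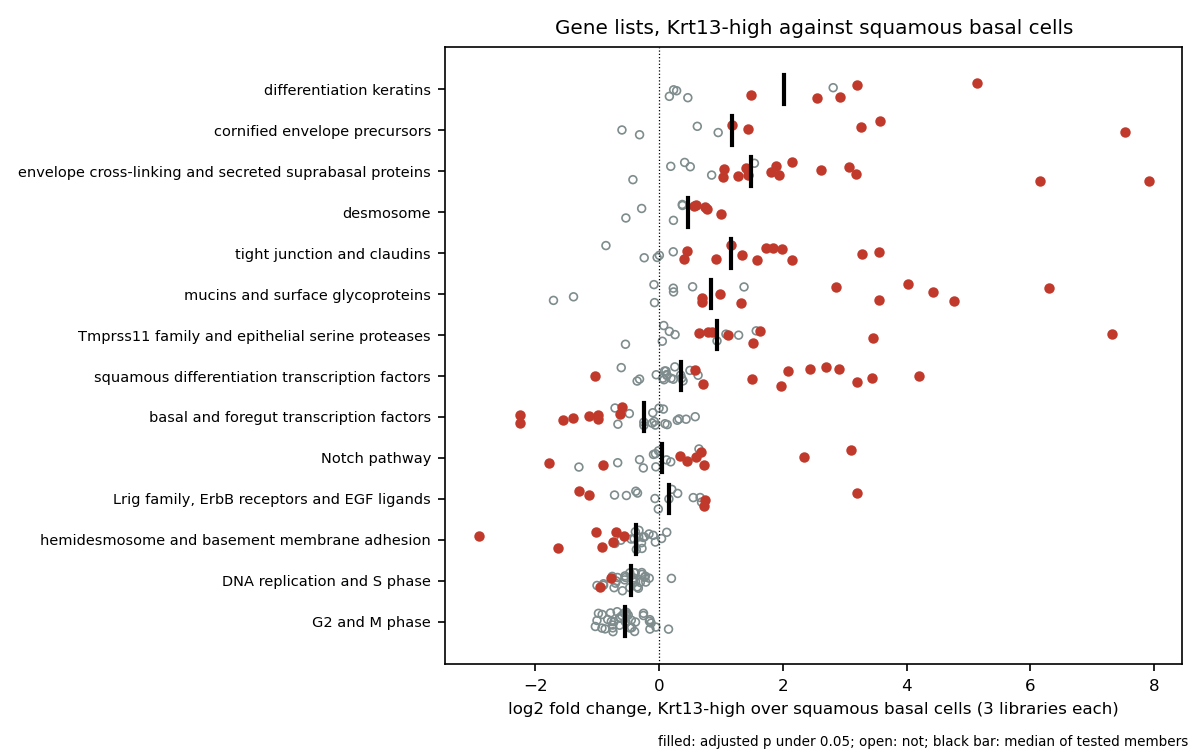
Log2 fold change of Krt13-high over squamous basal cells (x axis, 3 libraries each) for the tested members of 14 gene lists (rows). Filled points passed an adjusted p of 0.05, open points did not, and black bars mark the median of each list. Envelope, tight junction and keratin lists lie to the right of 0 and hemidesmosome and cell cycle lists to the left.

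Large falls outside the lists included genes of adhesion and matrix and a calcium channel subunit. *Col25a1*, a transmembrane collagen, stood at 0.730, 7.31 and 2.42 against 48.2, 94.7 and 38.8 CPM (-4.26 ± 0.60 (SE), adjusted p = 0.00343). It passed the low-count filter through squamous basal cells only. *Cacna2d1*, a calcium channel subunit, fell by 3.23, adjusted p = 0.000266, *Pcdh9*, a protocadherin, by 3.00, adjusted p = 0.000682 and *Sparc*, a matrix-binding protein, by 2.38, adjusted p = 0.00145 (log2 fold change and adjusted p).

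Markers of other cell types were measured in the same sums. The 5 airway secretory markers outside the rule summed to 4586 to 6425 CPM in Krt13-high cells, 2822 to 3718 CPM in squamous basal cells and 13900 to 24221 CPM in other Epcam-positive cells. Most of that was *Cyp2f2*, a cytochrome of club cells, at 3870.0, 5195 and 5733 CPM, and 1 of the 5 tested was higher than in squamous basal cells. The 5 leukocyte markers summed to 65.8 to 212 CPM against 44.8 to 78.6 CPM, and 0 of 2 tested passed. Ciliated markers summed to 6.18 to 8.79 CPM, gland acinar markers to 9.28 to 33.6 CPM with *Pip* at 0, fibroblast markers to 1.69 to 27.3 CPM, endothelial markers to 0.843 to 3.21 CPM and neuroendocrine markers to 0.557 to 3.09 CPM. Fibroblast markers summed to 1.55 to 23.7 CPM in squamous basal cells, and of 3 tested 0 passed, or 1 was higher with the block. The part of these other cell types in the results was not tested.

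The second comparison set Krt13-high cells against other Epcam-positive cells, a mixture whose airway secretory markers summed to 13899.7 to 24221 CPM and whose gland acinar markers summed to 243 to 683 CPM. Of 17639 genes tested 7132 passed (40.4%), 3630 higher (20.6%) and 3502 lower (19.9%). With the library as a block 8391 passed (47.6%), 4310 higher (24.4%) and 4081 lower (23.1%). It shared the Krt13-high sums with the first comparison. Cells high in *Krt13* or in *Krt5* and *Krt14* were left out of the other Epcam-positive cells, so genes that vary with these keratins differ by construction here too. Squamous groups were higher there: 12 of 13 tested differentiation keratins, 12 of 13 envelope precursors, 16 of 20 genes of envelope cross-linking and 8 of 10 desmosome genes were higher, and of these lists 2 desmosome genes were lower. Of each 12, 2 passed the low-count filter through Krt13-high cells only (*Krt78* and *Krt36*, *Sprr2a2* and *Sprr2b*). *Krtdap*, a secreted differentiation peptide of keratinocytes, stood at 90.0, 46.9 and 127 against 1.43, 0.499 and 2.26 CPM (6.22 ± 0.59 (SE), adjusted p = 0.000567), *Serpinb2* at 94.8, 72.2 and 368 against 3.36, 2.54 and 4.99 CPM (5.89 ± 0.70 (SE), adjusted p = 0.00105), and *Lypd3*, a surface protein of suprabasal keratinocytes, at 77.0, 48.9 and 139 against 2.45, 2.46 and 4.24 CPM (5.13 ± 0.43 (SE), adjusted p = 0.000426). Connexins joined them, with 6 of 7 gap junction genes higher and 0 lower, led by *Gja1* at 143, 77.3 and 74.4 against 28.3, 25.4 and 33.9 CPM (2.02 ± 0.27 (SE), adjusted p = 0.00149). Against squamous basal cells 0 of 6 tested gap junction genes passed, or 2 with the block.

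Genes of other epithelia were lower there. *Calca*, the neuropeptide precursor of neuroendocrine cells, fell by 6.25, adjusted p = 0.027 on the log2 scale, the ciliary genes *Rp1* by 5.89, adjusted p = 0.000714 and *Spag16* by 5.83, adjusted p = 0.000822, and *Cp*, ceruloplasmin, by 5.51, adjusted p = 0.000668. *Bpifa1*, a secreted airway defence protein, stood at 491, 269.6 and 512 against 16501, 7747 and 7351 CPM (-4.37 ± 0.44 (SE), adjusted p = 0.000649). Of the mucosal genes, *Psca* and *Muc4* were higher here too, and *Cyp2a5* (631, 339 and 211 CPM; 0.32, adjusted p = 0.513) and *Cldn3* did not pass. *Psca* stood at 7.19, 5.16 and 0.906 CPM there (4.59 ± 0.71 (SE), adjusted p = 0.0027), *Muc4* at 65.3, 44.1 and 51.8 CPM (1.37 ± 0.25 (SE), adjusted p = 0.00468), and *Cldn3* at 193, 158 and 126 CPM (0.53, adjusted p = 0.136). *Trp63*, at 507, 554 and 689.5 CPM, did not pass (-0.23, adjusted p = 0.492).

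The Krt13-high cells were then divided by their own *Krt5* and *Krt14*, into 267, 129 and 463 cells under 40 per 10,000 and 136, 36 and 331 cells at or above it. The *Krt13* threshold did not use these keratins, but *Krt5* was 1 of the 4 genes by which mixed barcodes were removed, and with those kept 156 genes passed instead of the 122 below. Again the cut passed through a continuum, with 105 cells at 35 to 40 and 87 at 40 to 45. Of 11493 genes tested 122 passed (1.06%), 88 higher (0.766%) and 34 lower (0.296%) in the cells with fewer basal keratins. With the library as a block 1670 passed (14.5%), 892 higher (7.76%) and 778 lower (6.77%). Without library 2, 0 genes passed in edgeR's test, with 926 at an unadjusted p under 0.05, and 1244 passed with the block. Without library 1 or 3 the counts were 57 and 140, and DESeq2 called 313 on all libraries. Each of the 19 genes named below as past the threshold lost it without library 2, and all 19 passed with the block in each of the 3 fits without 1 library. *Psca* and *Muc21* are counted among the 19 but passed the low-count filter through the cells under 40 only, so they could only be called higher.

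*Psca*, *Cyp2a5* and some mucins were higher in the cells with fewer basal keratins. *Psca* stood at 137, 151 and 99.8 CPM there and at 0.769, 1.46 and 4.48 CPM in the rest (5.38 ± 0.39 (SE), adjusted p = 0.00139), although 5.62%, 7.75% and 10.6% of the cells with fewer basal keratins had a *Psca* UMI, against 0.735%, 2.78% and 4.53% of the rest. *Psca* passed the low-count filter through the cells under 40 only. *Cyp2a5* stood at 591, 618 and 583 against 19.6, 27.8 and 48.0 CPM (4.17 ± 0.30 (SE), adjusted p = 0.00139) and *Muc4* at 113, 165 and 213 against 10.4, 7.32 and 40.8 CPM (2.79 ± 0.48 (SE), adjusted p = 0.0418). The libraries did not overlap for any of the 3. *Krt19* stood at 432, 487 and 784 against 42.7, 58.5 and 134 CPM (2.81 ± 0.41 (SE), adjusted p = 0.0236), *Cldn3* at 186, 305 and 291 against 24.6, 46.8 and 71.7 CPM (2.42 ± 0.35 (SE), adjusted p = 0.0227) and *Pglyrp1* at 586, 925 and 976 against 137, 212 and 241 CPM (2.08 ± 0.26 (SE), adjusted p = 0.0145). *Clca3b*, a chloride channel regulator (4.07, adjusted p = 0.0196), *Cxcl17*, a mucosal chemokine (3.13, adjusted p = 0.00874), and *Tspan1*, a tetraspanin (2.97, adjusted p = 0.0418), were also higher. Of 16 tested mucins and surface glycoproteins 5 were higher and 0 lower (11 and 1 with the block), *Muc21*, *Muc20*, *Muc4*, *Muc1* and *Muc16* (log2 fold changes 4.15, 3.95, 2.79, 2.73 and 2.33). *Muc21* passed the low-count filter through the cells under 40 only.

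Genes of division lay on the side of more *Krt5* and *Krt14*. Of 38 G2 and M phase genes 0 were higher and 7 lower in the cells with fewer basal keratins, and all 38 were lower with the block (median -1.83), and of 29 S phase genes 0 were higher and 5 lower, or 18 with the block. Of the 7 and 5 that were lower, 3 and 1 passed the low-count filter through the cells at or above 40 only. *Anln*, the cytokinesis protein anillin, stood at 21.2, 11.5 and 17.4 against 66.5, 57.1 and 66.5 CPM (-1.91 ± 0.21 (SE), adjusted p = 0.00874), and *Mki67* at 39.5, 11.5 and 20.6 against 81.1, 61.5 and 94.96 CPM, which did not overlap and passed only with the block (-1.74, adjusted p = 0.0711; with the block, 2.86e-05). The other large falls were *Igfbp2* (-1.80, adjusted p = 0.0142) and *Igfbp7* (-1.24, adjusted p = 0.0452), which bind insulin-like growth factors, *Procr*, the protein C receptor (-1.48, adjusted p = 0.0191), *Phgdh*, of serine synthesis (-1.27, adjusted p = 0.0476), and *Tpm2*, a tropomyosin (-1.01, adjusted p = 0.0418). Of 23 hemidesmosome genes 0 passed, and 13 were lower with the block.

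The markers that gave the cells their label did not follow this division evenly. Of the 4 tested, 0 passed, or 1 was higher and 1 lower with the block. In the cells with fewer basal keratins 1 of them, *Krt4*, had a log2 fold change above 0. The other 3, *Krt6a*, *Lgals7* and *Sbsn*, lay below 0 (median of the 4 -0.37). *Krt4* stood at 2214, 2018 and 2739 against 1224, 1243 and 2069 CPM (0.63, adjusted p = 0.31; with the block, 0.000126) and *Krt6a* at 864, 579.6 and 1457 against 1016, 565 and 2239 CPM (-0.40, adjusted p = 0.81; with the block, 0.0844). *Lgals7* lay on the side of the basal keratins, at 939, 454 and 423 against 1789, 1129.8 and 1357 CPM, with no overlap, and passed only with the block (-1.23, adjusted p = 0.144; with the block, log2 fold change -1.30, adjusted p = 3.45e-06). *Trp63*, a basal factor and not one of these markers, stood at 478, 337 and 236 against 729, 493 and 386 CPM (-0.61, adjusted p = 0.451; with the block, 0.000134).

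**Figure D4:**
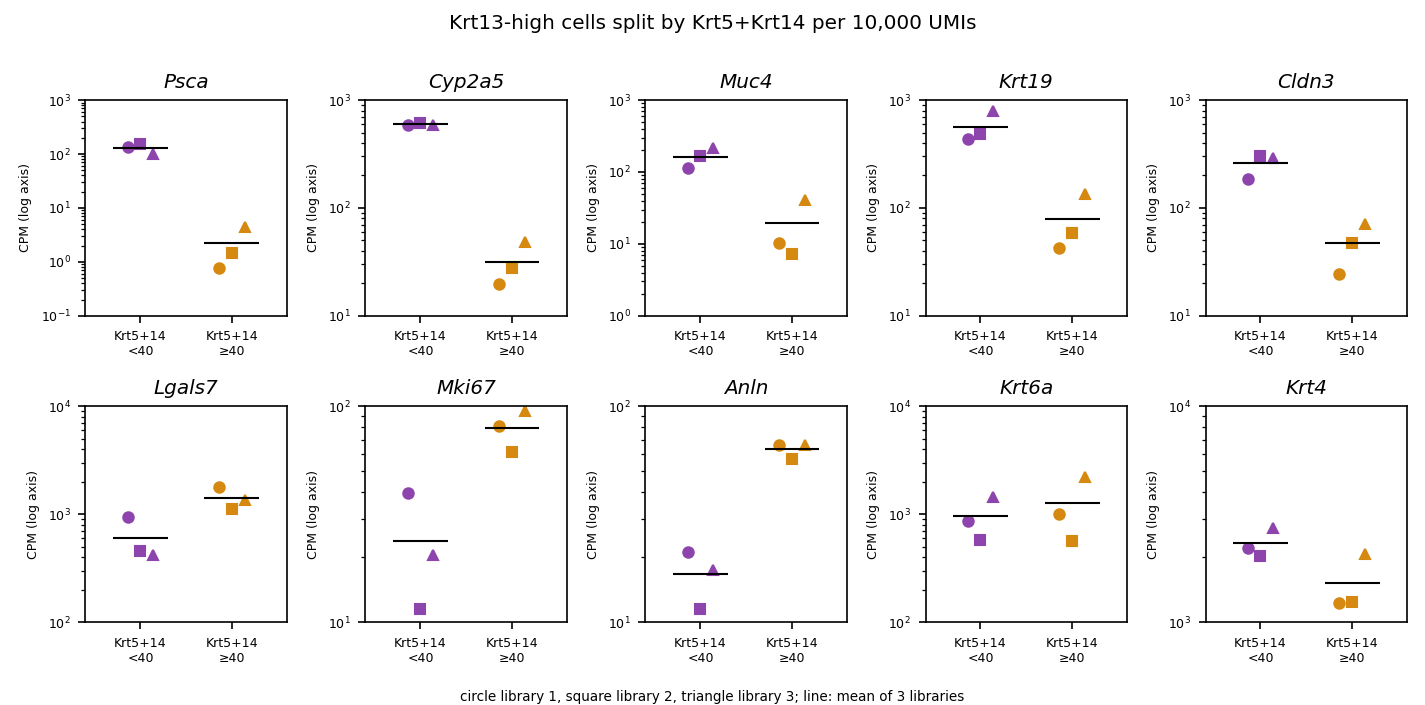
Level of 10 genes (y axis, CPM, log axis) in Krt13-high cells with a summed *Krt5* and *Krt14* level under 40 or at least 40 per 10,000 UMIs, with 1 point per library and a line at the mean of 3 libraries. *Psca*, *Cyp2a5*, *Muc4*, *Krt19* and *Cldn3* are higher and *Lgals7*, *Mki67* and *Anln* lower under 40 in every library, while *Krt6a* overlaps.

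Genes named in this division were also counted cell by cell, without use of *Krt5* or *Krt14*. They had already been seen to differ over the division of the same cells, so the counts give it no separate support. With each cell thinned to 5000 UMIs, 324, 136 and 701 Krt13-high cells were deep enough to compare. Of those with a UMI of *Psca*, *Muc4* or *Cyp2a5*, 53.2%, 40.4% and 45.8% in libraries 1 to 3 also had a *Lgals7* UMI, against 89.0%, 67.4% and 84.5% of the other Krt13-high cells. *Krt6a* gave no such order, with 79.7%, 70.2% and 80.2% against 53.1%, 62.9% and 87.7%. The share with a *Mki67* or *Top2a* UMI was 7.59%, 4.26% and 9.92% against 11.8%, 8.99% and 17.1%. These shares describe the cells and carry no test. A *Psca* UMI was present in 4.03% ± 1.64 of the thinned Krt13-high cells and in 0.00% ± 0.00 of the thinned endothelial cells, and a *Muc4* UMI in 22.2% ± 6.42 and 0.106% ± 0.184. A *Cyp2a5* UMI was present in 21.0% ± 2.68 and 3.43% ± 3.03, so its background was the highest of the 3. The thinned endothelial cells numbered only 313, 22 and 17 in libraries 1 to 3. Before thinning a *Psca* UMI was present in 1.19% ± 1.86 of endothelial cells, so a background of *Psca* is not shown to be absent.

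The other cell type markers were also counted over this division. The airway secretory markers summed to 5545 to 8154 CPM in the cells with fewer basal keratins and 3019 to 4571 CPM in the rest, the leukocyte markers to 76.4 to 256 CPM and 27.8 to 48.4 CPM, and the fibroblast markers to 1.74 to 42.2 CPM and 1.46 to 7.52 CPM. None of the 4, 2 and 1 tested members passed, and with the block 2, 1 and 1 were higher and 1 airway secretory marker was lower. Scored doublets were 7.49%, 0% and 11.7% of the cells with fewer basal keratins and 1.47%, 0% and 8.46% of the rest. Their part in the difference was not tested. Without scored doublets 106 genes passed.

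Finally, levels were described over ranges of *Krt13* within the Krt13-high cells, 20 to 50, 50 to 100, 100 to 200 and at least 200 per 10,000, with 10 to 20 just outside. These ranges held 240, 102 and 424 cells, 120, 47 and 245, 34, 16 and 103, and 9, 0 and 22, so the range of 100 to 200 in library 2 and the top range in library 1 rest on fewer than 20 cells. Of 9137 genes at 10 CPM or more, 381 rose from range to range between 20 and 200 in all 3 libraries (4.17%) and 769 fell (8.42%). Since *Krt13* chose the cells, no test was made.

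*Krt4* rose with *Krt13* from 1158, 1332 and 1732 CPM at 20 to 50 to 3585, 4797 and 3999.7 CPM at 100 to 200. *Krt6a* rose from 462, 414 and 849 CPM to 2475, 1505 and 3279 CPM and *Sbsn* from 23.9, 22.5 and 28.1 CPM to 83.4, 72.3 and 204 CPM. *Krt80* and *Krt6b* rose too, making 4 of 9 differentiation keratins with 0 falling, and 7 of 18 genes of envelope cross-linking rose with 0 falling, among them *Calml3*, a calmodulin of differentiating epithelia, from 265, 486 and 700.2 to 1288, 1404 and 1691 CPM. Of 10 desmosome genes 5 rose (*Pkp1*, *Perp*, *Jup*, *Dsc2* and *Dsg3*) and 1 fell (*Dsg2*). Of 26 squamous differentiation factors 5 rose (*Elf3*, *Klf4*, *Grhl3*, *Zfp750* and *Klf5*) and 2 fell (*Grhl2* and *Nr3c1*). *Grhl3* went from 12.2, 14.3 and 35.2 to 104, 61.6 and 116 CPM. In the Notch pathway *Notch3* and *Nrarp* rose and *Jag2*, *Dll1* and *Maml2* fell.

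Of 22 hemidesmosome and basement membrane genes, 0 rose and 10 fell in that order. *Trp63* fell from 707, 409 and 353 CPM at 20 to 50 to 240.1, 252 and 199.7 CPM at 100 to 200, and *Lrig1* from 46.6, 67.8 and 63.5 CPM to 27.8, 40.2 and 38.3 CPM, together with *Spry1*, *Spry2* and *Nrg2*. Some genes had no steady course. *Psca* stood at 141, 95.9 and 10.4 CPM at 20 to 50 and at 1.46, 34.8 and 193 CPM at 100 to 200, and *Cyp2a5* at 400.1, 638 and 348 and 42.5, 316 and 296 CPM. *Lgals7* stood at 1290.3, 524 and 716 and 1256, 565 and 980.3 CPM.

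**Figure D5:**
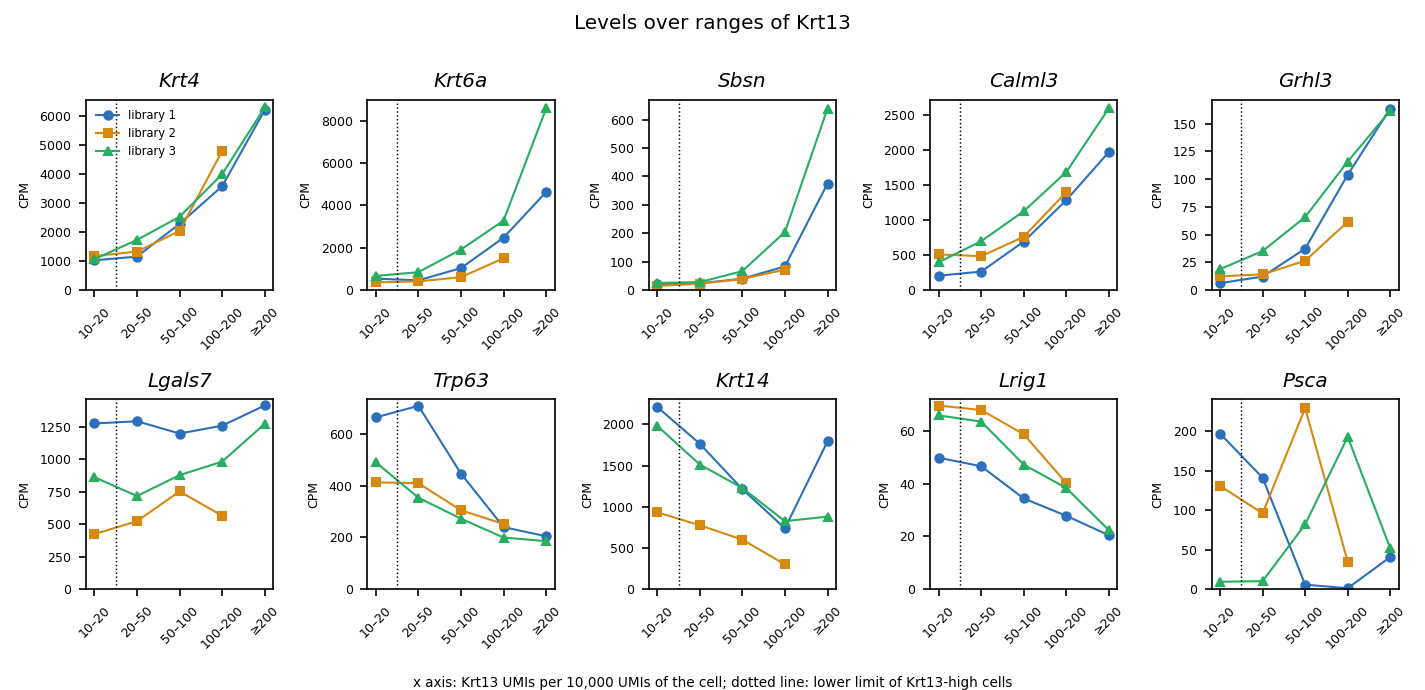
Level of 10 genes (y axis, CPM from 0) over 5 ranges of *Krt13* (x axis, UMIs per 10,000 UMIs of the cell), with 1 line per library; the dotted line marks the threshold of 20, and library 2 has no cell in the top range. *Krt4*, *Krt6a*, *Sbsn* and *Grhl3* rise and *Trp63* and *Lrig1* fall from 20 to 200 in every library, and *Psca* has no steady course.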

How the data were processed

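Single-cell RNA of 3 libraries of sorted laryngeal cells was captured with 10x GEM-X 3′ chemistry. Per the file headers and the methods of the study, the deposited values are UMI counts per gene and barcode, made by the authors with Cell Ranger 8.0.1 on mm39 (submitters' processing notes), with no normalization. The files held 33696 features. Libraries differ in depth (given with the results), and intervals cover counting error only.

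Barcodes were kept by the limits stated with the results. The 8360 barcodes with UMIs of all of *Krt5*, *Ltf*, *Scgb3a1* and *Dcn* were left out. Doublets were scored by simulated barcode pairs with an assumed rate of 0.4% per 1000 barcodes and were kept in the main sums. UMIs were summed per library and cell group, without the 7 genes of the rules, and tested with edgeR 4.0.16 (R 4.3.3, TMM, filterByExpr, glmQLFit, glmQLFTest, two-sided, Benjamini-Hochberg threshold 0.05); DESeq2 1.42.0 was an alternative. Libraries came from separate pools of animals, so p-values measure the spread between 3 pools, which may in part be technical. Sums of the same library shared a pool, and their deviations from the group means correlated (r from 0.388 to 0.579 against squamous basal cells, 0.144 to 0.304 against other Epcam-positive cells and 0.264 to 0.599 within Krt13-high cells), so fits with the library as a replicate block are given beside the list counts and calls that they change.

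The cells, gene lists and tests were chosen with earlier results of these data known. Named genes were the markers, *Lrig1*, *Notch1* and *Trp63*, up to 5 members of each list by mean CPM, members at 10 CPM or more of transcription factor, Notch, ErbB and keratin lists, and, per comparison, the 6 largest rises and 6 largest falls with at least 50 CPM and one direction in 3 libraries. Chosen after their values were seen were *Itga2*, *Col7a1*, *Lamb3*, *Col4a6*, *Bcam*, *Cav1*, *Lcn2*, *Lor*, *Ivl*, *Flg*, *Cnfn* against squamous basal cells, the mucins within Krt13-high cells other than *Muc4*, and genes named only by their order over *Krt13*. Some genes that these rules name are not reported here.

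Alternatives were DESeq2, no low-count filter, each library left out, the block, *Krt13* thresholds of 10 and 50, doublets left out, thinning to 5000 UMIs, no upper limits, mixed barcodes kept and, for other Epcam-positive cells, squamous basal cells with an *Epcam* UMI added. Keeping mixed barcodes and leaving out a library with the block kept were chosen after seeing the data. Simulated counts had no pairing of libraries, and only genes at a mean of 10 CPM or more were changed in them. On these counts, 4-fold changes were recovered for 100 of 100 genes in each of the 3 comparisons, and 2-fold changes for 90 against squamous basal cells (12632 genes), 91 against other Epcam-positive cells (17272 genes) and 75 within Krt13-high cells (11323 genes). Unchanged genes called numbered 11, 7 and 5 in the same order.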

Additional observations from a re-analysis of the deposited data

Results flagged for a closer look

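Krt13-high barcodes were also present in data that the comparisons did not use. Above the upper limits of 8000 genes or 40000 UMIs lay 1278 barcodes, and 237 of them had *Krt13* of at least 20 per 10,000, which is 18.5% (95% Wilson interval 16.5 to 20.8) against 3.32% of the cells within the limits. By library these were 33, 51 and 153 barcodes, or 9.79%, 15.4% and 25.1%. Whether these barcodes hold 1 cell each was not tested. With them included, 1888 genes passed against squamous basal cells.

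Among the 8360 barcodes left out for holding UMIs of *Krt5*, *Ltf*, *Scgb3a1* and *Dcn* together, 180 reached the *Krt13* threshold (66, 6 and 108 by library), which is 2.15%. With these barcodes kept, 1621 genes passed against squamous basal cells.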

How the results depend on the processing

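The share of Krt13-high cells was 4.92% with a *Krt13* threshold of 10 and 1.30% with 50, and the share with a *Lrig1* UMI fell from 49.7% to 19.9% on thinning. Against squamous basal cells the 1516 calls became 3680 with the replicate block, 2431 with a *Krt13* threshold of 50 and 979 with cells thinned to 5000 UMIs. They were 515 to 871 with 1 library left out, and 2183 to 3778 with the block as well (3202 without replicate 2). Against other Epcam-positive cells the 7132 calls became 2905 to 4400 with 1 library left out. Within Krt13-high cells the 122 calls became 1670 with the replicate block, 313 with DESeq2, 489 with no low-count filter, 494 and 7 with *Krt13* thresholds of 10 and 50, 56 with thinning and 270 with no upper limits. They were 0 to 140 with 1 library left out, and 601 to 1568 with the block as well (1244 without replicate 2). Fits without 1 library rest on 2 against 2 sums; other causes were not tested.

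Of 74 genes named as past the threshold against squamous basal cells, 40 also passed in each fit without 1 library, and 73 did so with the block kept, *Jag1* being the exception. These counts include *Psca* and *Krt6b*, which passed the low-count filter through Krt13-high cells only and could only be called higher. They also include *Col25a1*, which passed it through squamous basal cells only and could only be called lower. The block changed no call of a named gene from past to short of the threshold. Some named genes passed against squamous basal cells only with the block. Of these, *Krt16*, *Klf5*, *Cstb* and *Dll1* passed in each block fit without 1 library. *Krt15* missed without library 2 or 3 (edgeR adjusted p = 0.205 and 0.126) and *Lgals7* without 1 or 2 (0.0616 and 0.0918). *Col17a1* missed without 2 or 3 (0.0797 and 0.0669), and *Klf4* and *Mki67* without 3 (0.0552 and 0.265). The log2 fold changes of 4 genes turned, none of them past the threshold on all libraries or where they turned. *Krt17* against squamous basal cells was -0.0026 with the block and without replicate 3. *Krt19* against other Epcam-positive cells ran from -0.277 to 0.0589 with 1 library left out, and was 0.0509 with the block and without replicate 1 and 0.0523 with squamous basal cells added. *Trp63* there ran from -0.692 to 0.00549 with 1 library left out, and *Cyp2a5* there was -0.0301 with a *Krt13* threshold of 50. Mean ratios of median depth stayed above 1 with *Krt13* thresholds of 10 and 50, without scored doublets and with no upper limits, but with a threshold of 50 the ratio of genes per cell to squamous basal cells was 0.981 in library 2. The 165 Krt13-high cells of library 2 limit the depth of its sums.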

Other observations

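Some genes of sterol synthesis were higher in Krt13-high cells than in squamous basal cells. This list of 20 genes was chosen after its members were seen among the genes that rise with *Krt13*, so it carries no test of its own. In edgeR's test 6 of 20 rose and 0 fell, with a median log2 fold change of 1.09, and with the library as a block 19 rose and 0 fell. Over all genes tested 6.57% rose, and 16% with the block. *Pmvk*, *Tm7sf2*, *Sc5d* and *Dhcr7* were among those that rose without the block. Over *Krt13* ranges of 20 to 50, 50 to 100 and 100 to 200 per 10,000 the 20 genes summed to 499, 658 and 627 CPM in library 1, 464, 665 and 648 CPM in library 2 and 695, 1072 and 1746 CPM in library 3. Only library 3 rose at each step in that sum, and *Mvk*, *Fdps*, *Sqle* and *Dhcr7* rose at each step in all 3 libraries.

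*Fabp5* and *Rbp2*, chosen after their values were seen, rose at each step in all 3 libraries. *Fabp5*, a fatty acid-binding protein of keratinocytes, went from 27.9, 37.6 and 73.2 CPM at 20 to 50 to 247, 212 and 251 CPM at 100 to 200, and *Rbp2*, a retinol-binding protein, from 3.73, 4.32 and 9.41 CPM to 36.6, 107 and 58.4 CPM. *Fabp5* (log2 fold change 2.16, adjusted p = 0.00611, edgeR) and *Rbp2* (4.72, adjusted p = 0.000438) were also higher than in squamous basal cells. *Rbp2* stood at 0.280, 0.582 and 0.926 CPM in squamous basal cells. It entered the test through Krt13-high cells only, so it could only be called higher.

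Of the remaining lists, 0 of 6 gap junction genes and 0 of 59 ribosomal protein genes passed against squamous basal cells in edgeR's test (medians 0.23 and 0.09), with 2 and 0 passing with the block. Of 24 dissociation and immediate-early genes 2 were higher and 0 lower, or 9 and 4 with the block (median 0.10), and against other Epcam-positive cells 9 of 25 were higher, or 13 with the block. Over all genes 6.57% were higher and 5.27% lower against squamous basal cells, or 16% and 12.7% with the block. Against other Epcam-positive cells 20.6% of all genes were higher, or 24.4% with the block. Muscle satellite markers summed to 1.41 to 5.64 CPM and thyroid markers to 9.17 to 36.3 CPM in Krt13-high cells, against 18.6 to 23.8 CPM of thyroid markers in squamous basal cells.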
